A study of Mus with 4 samples.

Results

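The 9 genes described here belong to the renin-angiotensin system and to the neprilysin family of peptidases: Ren1, Agt, Ace, Agtr1a, Agtr2, Atp6ap2, Enpep, Mme and Mmel1. They are 9 of 26893 genes named on the array and were taken by gene symbol, with all of their 14 probes among 56605. The set was chosen by looking at measured differences between the groups of this same experiment, so those differences are given as a description, without p-values. The annotation deposited with the signals places 8 of the 9, all but Mmel1, in the renin-angiotensin pathway, and gives 6 of them a peptidase term.

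Renin cuts angiotensinogen, the product of Agt, to angiotensin I, which angiotensin-converting enzyme (Ace) turns into angiotensin II. Angiotensin II acts through the receptors encoded by Agtr1a and Agtr2. Aminopeptidase A (Enpep) trims it to angiotensin III, and neprilysin (Mme) cleaves angiotensin I and also natriuretic peptides, endothelin and bradykinin. Mmel1 encodes a close relative of neprilysin in the M13 family of zinc metallopeptidases. Atp6ap2, known as the prorenin receptor, is also an accessory part of the proton pump of acidic organelles. In the kidney most renin comes from juxtaglomerular cells, while neprilysin and aminopeptidase A sit on podocytes and on the brush border of the proximal tubule.

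RNA came from an immortalized murine podocyte cell line that had been differentiated for 10 to 14 days at the nonpermissive temperature without interferon-γ. In the OASIS group, 2 samples received a lentivirus for the active, N-terminal form of OASIS (Creb3l1), a transcription factor normally anchored in the membrane of the endoplasmic reticulum. In the Venus group, 2 samples received a lentivirus for the fluorescent protein Venus as the control. Both viruses were given for 24 h with polybrene at a multiplicity of infection of 200 to 500, and RNA was taken 48 h after treatment. Both groups therefore carried a virus, the OASIS fragment was driven by the vector's own promoter, and no cells without virus were analysed here. The labels do not say whether samples 1 and 2 of a group were separate cultures, so that errors measure the spread between these samples, which may be technical. A bulk sample cannot tell fewer cells of a type from less RNA per cell.

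A single slide and a single scan held all 4 arrays, and 31351 to 31826 probes per array were well above background by the scanner software's own criterion. The correlation over probes was 0.997 for the Venus pair and 0.995 for the OASIS pair, and at least 0.973 between groups. The probe of Creb3l1 itself read 0.71 and 0.72 with Venus and 0.61 and 0.49 with OASIS. Where it lies on the transcript was not analysed here, so it does not check the labels. Among the podocyte markers, Nphs1 (nephrin) was well above background on 1 Venus array and on no other. By their brightest probes, Wt1 differed by 4.62 on the log2 scale and Cd2ap by 1.09, both higher with OASIS, with -0.16 for the other Wt1 probe and -0.37 and 0.31 for the other Cd2ap probes, while Synpo, Podxl and Kirrel did not pass the threshold. Another Kirrel probe, noted after its values were seen, was called lower, at -1.11 (limma adjusted p = 0.00705).

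Levels below are normalized log2 intensities, relative to the 75th percentile of their array, and can be compared only between arrays for one probe, not between probes. Differences are OASIS minus Venus on the log2 scale. A probe was called when its fold change was over 2 or under 0.5 with a limma adjusted p under 0.1. Over all 31598 probes tested, 8.36% were called, 5.89% higher and 2.47% lower with OASIS. Of the 14 member probes, 10 from 7 genes were well above background on both arrays of a group, and 4 of the 10 were called. These were 1 probe of Ren1, lower with OASIS, and 1 probe of Enpep and 2 of Mmel1, higher. The Mmel1 calls rest on Venus values that were not well above background. By brightest probe, 3 member genes were called, 2 higher and 1 lower, where 8.06% of all 16318 genes tested were called, 6.21% higher and 1.85% lower. The members had been picked for values of this contrast, so nothing is read from how these counts compare with the background. Both OASIS arrays lay above both Venus arrays for 4 of the 10 probes, and below for 2, where over all probes the shares were 28.6% and 39.4%.

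**Figure D1:**
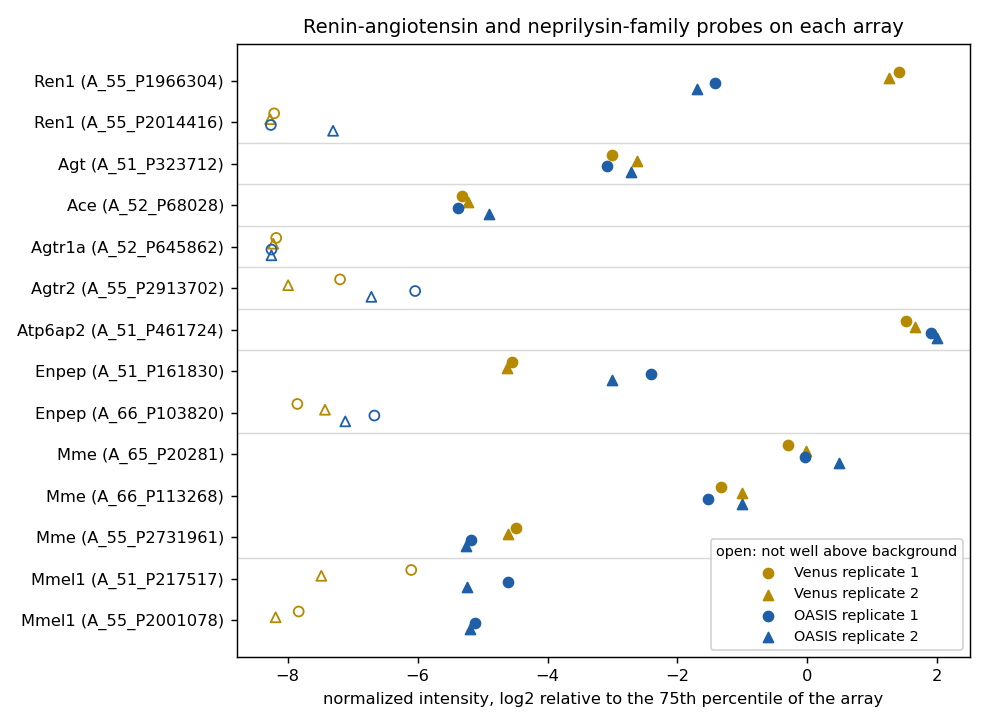
Normalized log2 intensity (horizontal axis, relative to the 75th percentile of the array) of the 14 member probes, 1 row per probe, with 1 point per array and open points where the probe was not well above background. Within a row, the OASIS points lie to the left of the Venus points for the brighter Ren1 probe and to the right for the brighter Enpep probe and both Mmel1 probes, and 4 rows have open points on all 4 arrays.

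Ren1, renin itself, on chromosome 1 in band qE4, was lower with OASIS by its brighter probe. That probe read 1.42 and 1.26 with Venus and -1.43 and -1.69 with OASIS. Both OASIS samples were far below both Venus samples: the nearest values of the 2 groups were 2.69 apart, while arrays of the same group differed by at most 0.27. The means were 1.34 ± 0.11 (SD, n = 2) for Venus and -1.56 ± 0.19 (SD, n = 2) for OASIS, a difference of -2.90 (standard error 0.14), or 7.48-fold lower. The spot remained readable on the OASIS arrays, with a median brightness of 376 and 322 against a local background of 36 and 33, and 2456 and 2220.5 on the Venus arrays. The other Ren1 probe read between -8.27 and -7.30 and was well above background on none of the 4 arrays, so the fall rests on 1 probe.

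The mouse genome can hold a near-identical copy of Ren1, called Ren2, and whether the Ren1 probe also reads Ren2 transcripts was not analysed here. The probe annotated to Ren2 read -4.61 and -4.95 with Venus and -4.52 and -4.55 with OASIS. The OASIS values lay slightly above those of Venus, and the difference of 0.25 (standard error 0.15, limma adjusted p = 0.270) did not pass the test. Markers of mesangial and other mural cells, the lineage to which juxtaglomerular cells belong, were read beside Ren1. Of the 7, 5 were tested and 1, Cspg4, was called, with a difference of 1.48 (limma adjusted p = 0.0250), opposite in direction to Ren1. Rgs5 was well above background on no array and Itga8 on 1. The summed linear level of the 5 tested markers, in units of each array's 75th percentile, ran from 229 to 237 on the Venus arrays and from 204 to 215 on the OASIS arrays. Nearly all of that sum is Tagln (mean log2 level 7.32 with Venus, 7.21 with OASIS) and Acta2 (6.13 and 5.86). The sum therefore says little of the other markers. The part of these markers in the fall of Ren1 was not tested.

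Agt, the substrate of renin (chromosome 8, band qE2), did not separate the groups. It read -3.01 and -2.62 with Venus and -3.08 and -2.72 with OASIS, and the sample numbered 1 was the lower one in each group. The difference of -0.08 (standard error 0.20) was smaller than the spread within either group. Atp6ap2, the prorenin receptor (chromosome X, band qA1.1), read 1.52 and 1.66 with Venus and 1.90 and 2.0 with OASIS. Both OASIS samples were higher, with 0.25 between the nearest values, and the difference of 0.36 (standard error 0.11) amounted to 1.29-fold, below the 2-fold limit.

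Ace, which makes angiotensin II (chromosome 11, band qE1), was dim but readable on all 4 arrays, at -5.32 and -5.23 with Venus and -5.38 and -4.90 with OASIS. The OASIS values lay on both sides of the Venus values, and the difference was 0.14 (standard error 0.19). Neither receptor of angiotensin II was measurable. The Agtr1a probe, for the main vasoconstrictor receptor (chromosome 13, band qA3.2), had spot medians of 34 to 38 against local backgrounds of 29 to 32, with normalized values between -8.25 and -8.18. The Agtr2 probe (chromosome X, band qA2) read -7.19 and -7.99 with Venus and -6.04 and -6.71 with OASIS, well above background on none of them. No difference is given for either receptor, and an expression below what these probes can read would not show.

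Enpep, aminopeptidase A (chromosome 3, band qG3), was higher with OASIS by its brighter probe. It read -4.55 and -4.62 with Venus and -2.41 and -3.01 with OASIS, well above background on each. Both OASIS samples were above both Venus samples by at least 1.55, although the OASIS samples themselves were 0.60 apart. The means were -4.58 ± 0.05 (SD, n = 2) and -2.71 ± 0.42 (SD, n = 2), a difference of 1.88 (standard error 0.22), or 3.67-fold higher. The other Enpep probe, between -7.85 and -6.67, was well above background on none of the arrays.

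Mme, the gene of neprilysin (chromosome 3, band qE1), was read by 3 probes on all 4 arrays, and these gave unequal differences. The brightest read -0.30 and -0.02 with Venus and -0.03 and 0.49 with OASIS, which overlap, with a difference of 0.39 (standard error 0.22). The second read -1.33 and -1.01 against -1.54 and -1.01, with a difference of -0.10 (standard error 0.22). The third, annotated to another transcript of the gene, read -4.48 and -4.61 with Venus and -5.19 and -5.25 with OASIS. Here both OASIS samples were below both Venus samples, by at least 0.57, and the difference was -0.67 (standard error 0.11), 1.59-fold lower. None of the 3 differences reached 2-fold, and their signs disagreed, so no direction is given for Mme as a gene.

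Mmel1, the relative of neprilysin (chromosome 4, band qE2), was well above background on both OASIS arrays and on neither Venus array by each of its 2 probes. The brighter probe read -6.10 and -7.48 with Venus and -4.61 and -5.24 with OASIS. Both OASIS samples were higher, but the 2 Venus samples were 1.38 apart and the groups 0.86, and the fitted difference was 1.86 (standard error 0.51). The dimmer probe read -7.83 and -8.19 with Venus and -5.12 and -5.19 with OASIS. The nearest values were 2.65 apart, and the fitted difference was 2.86 (standard error 0.15). For both probes the gap, the fitted difference and its standard error rest on Venus values below the background criterion. Because the Venus spots were not well above background, the size of the rise is given as an approximate lower bound. For each Venus array the dimmest signal that still met the background criterion, or the probe's own value if larger, stood in for the measured one, and the OASIS mean was compared with the average of these. On that basis Mmel1 was at least 2.29-fold higher by the brighter probe and at least 1.96-fold by the dimmer. These bounds are approximate, since the criterion is no fixed level and the error of the OASIS spots is not counted. The brighter probe failed the criterion on Venus replicate 1 at -6.099, where the dimmest passing signal was -6.102. The bound for the dimmer probe is under the 2-fold limit of a call. The OASIS spots were faint as well, with medians of 79 and 69 over backgrounds of 36 and 32.5 for the brighter probe.

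**Figure D2:**
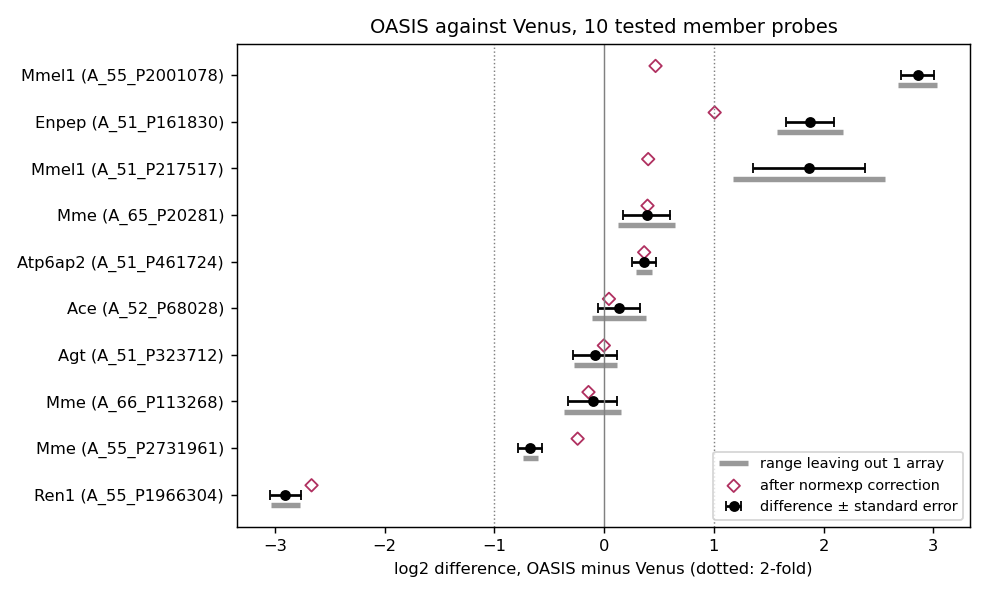
Log2 difference, OASIS minus Venus (horizontal axis), of the 10 tested member probes, with black points and bars for the fitted difference ± standard error, grey bars for the range when 1 array was left out, and open diamonds for the value after normexp background correction. Ren1 lies at -2.90 and is little moved, while Enpep falls from 1.88 to 1.01 and the Mmel1 probes from 1.86 and 2.86 to 0.40 and 0.47 after normexp.

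How far these differences depend on the background correction differed among the members. With normexp, a model-based background correction that here added an offset of 50 and so pulled dim values together, Ren1 was at -2.67 and Enpep at 1.01, both still past the threshold, whereas the Mmel1 probes had 0.40 and 0.47 and did not pass. The brighter Mmel1 probe passed in 7 of 14 alternative settings. Of the 4 that leave out 1 array it passed without Venus replicate 1, at 2.56, but not without any of the other three, and was at 1.17 without Venus replicate 2. In each of these fits 1 group has a lone sample, which is assumed to vary like the samples of the other group. Ren1 stayed between -3.04 and -2.67 over 15 alternative settings and passed in each. Proximal tubule markers were read beside Enpep and the neprilysin genes, which tubule cells also use: of 5 such genes 4 were tested, and Lrp2 was called by its brightest probe, at 1.62 (limma adjusted p = 0.0148). Its other probes had 1.68, 0.01, -0.10 and -0.16. The summed linear level of the 4 tested markers overlapped between the groups, at 21.6 to 29.5 on the Venus arrays and 22.1 to 37.7 on the OASIS arrays. Most of that sum is Aqp1, at log2 levels of 4.35 and 4.80 with Venus and 4.24 and 5.08 with OASIS. The sum therefore says little of the other markers. Slc34a1 was well above background on 1 array. The part of these markers in the rise of Enpep and Mmel1 was not tested. Of 5 endothelial and 5 leukocyte markers, 1 and 4 were tested, and none was called, with limma's unadjusted p under 0.05 for 0 and 2.

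Over the 4 arrays, the genes whose pattern came nearest to that of Ren1 were Nefl, Olfm3, Dennd1b, Ccdc177 and Gm29856. Likeness was the Euclidean distance between brightest probes, after each was centred on its own mean of the 4 arrays. Nefl, the light neurofilament chain, had the smallest distance, 0.52. Dennd1b, a regulator of Rab proteins, was at 0.76 with a difference of -2.15, and was the one gene of the 5 that was well above background on all 4 arrays. Olfm3, Ccdc177 and Gm29856 had distances of 0.68, 0.77 and 0.85. Those 3 and Nefl failed the background criterion on both OASIS arrays, so their OASIS levels were not measured and their distances, and their order by them, rest on values below the criterion. With 4 arrays in 2 groups, the measure rests on the difference between the groups and the small spread within them.

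**Figure D3:**
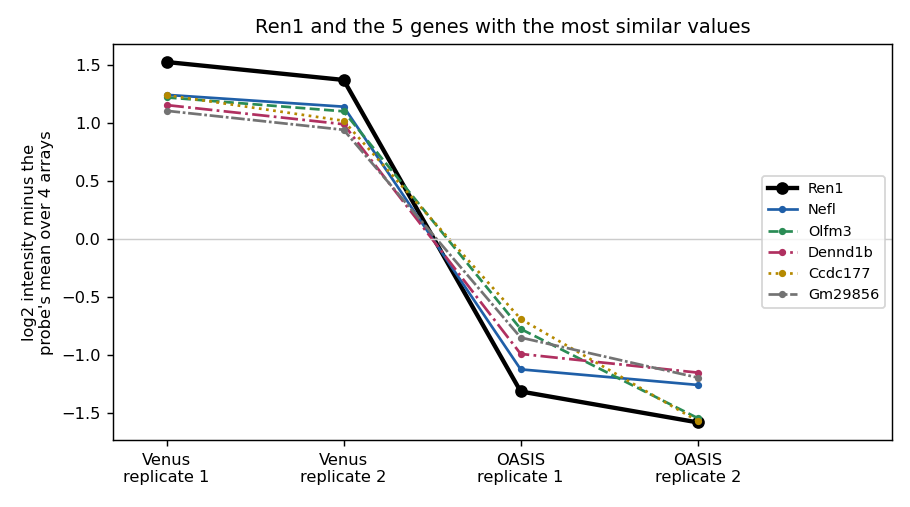
Log2 intensity minus each probe's mean over the 4 arrays (vertical axis) by array, for Ren1 (thick black line) and the 5 genes nearest to it. All 6 lines are above 0 on both Venus arrays and below 0 on both OASIS arrays, and Ren1 spans the widest range.

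The remaining genes of the renin-angiotensin system showed no called change by their brightest probe. Of 22 on the array, 12 were tested, none was called, and their differences ran from -0.88 to 0.25 with a median of -0.11, beside -0.06 over all genes tested. By limma's unadjusted p, 1 of the 12 was under 0.05, and the methods' t-test also called 0. This was Nln, neurolysin, at -0.88 (limma adjusted p = 0.0132), short of the 2-fold limit. A second Nln probe had -0.96 (limma adjusted p = 0.0127), also short of that limit. The dimmest Nln probe had 0.68 (limma adjusted p = 0.0818), so the probes of this gene disagreed in direction. Anpep, which trims angiotensin III, and Agtr1b, a second angiotensin II receptor gene, were among the 10 that were well above background on no array, as was Mas1, the receptor gene for angiotensin 1-7. Agtrap, whose product binds the type 1 receptor, had -0.11 by its brightest probe (limma adjusted p = 0.486), and -0.64 and -0.60 by its others. Lnpep, which binds angiotensin IV, had 0.04 by its brightest probe (limma adjusted p = 0.838). A dimmer Lnpep probe, singled out after its values were seen, was at 0.63 and 0.66 with Venus and -0.69 and -0.67 with OASIS, and was called at -1.33 (limma adjusted p = 0.00502).

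Among the 5 other M13 peptidases, Phex and Kel were well above background on no array, and the 3 tested were not called by their brightest probes, with limma's unadjusted p under 0.05 for 0 of them. Ece1, an endothelin-converting enzyme, had 0.03 (limma adjusted p = 0.881) by its brightest probe and -0.81 (limma adjusted p = 0.0265) by another, short of the 2-fold limit. Its relative Ece2 had 0.22 (limma adjusted p = 0.269) and, by its other probe, -0.24. The list's median was 0.03. Ecel1, a neuronal family member, was at -0.01 by its brightest probe, while another, singled out after its values were seen, was not well above background with Venus and read -1.52 and -2.37 on the OASIS arrays. By the approximate bound used for Mmel1, that probe was at least 17.4-fold higher with OASIS, given as a description. As with Mme, the result for these genes depends on which probe is read.

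Peptides that neprilysin degrades, and their receptors, included 3 called genes, all higher with OASIS. Of 18 on the array 10 were tested, with a median difference of 0.26, and over all genes 6.21% were called higher. Nppb, which encodes B-type natriuretic peptide, read 1.45 and 1.59 with Venus and 3.03 and 3.20 with OASIS. The groups did not overlap, and the difference was 1.59 (standard error 0.12, limma adjusted p = 0.00527), with 1.56 by its other probe. Nppc, the gene of C-type natriuretic peptide, rose from -6.56 and -6.06 to -3.59 and -4.20, a difference of 2.41 (limma adjusted p = 0.00995), but only 1 of its Venus values was well above background. After normexp, Nppc had 0.77 and was no longer called. Bdkrb2, the constitutive bradykinin receptor, rose by 1.73 (limma adjusted p = 0.00909), and by 1.68 with its other probe. Edn1, the endothelin 1 gene, had -0.55, Kng1, the kininogen gene, -0.68, and Npr3, the clearance receptor of natriuretic peptides, 0.59, each short of the fold limit. Npr1, the receptor for atrial and B-type natriuretic peptide, was well above background on no array.

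**Figure D4:**
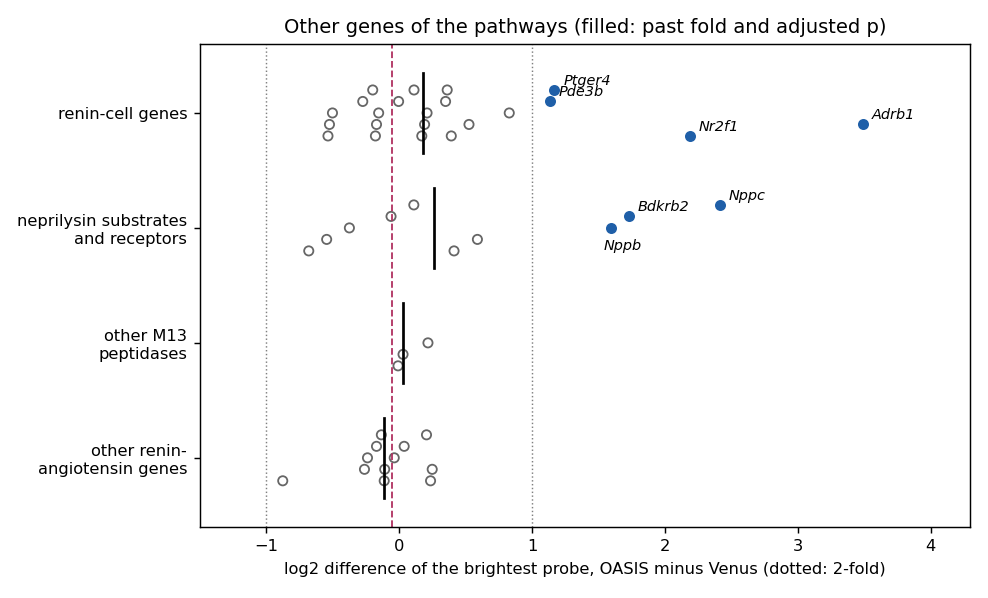
Log2 difference of the brightest probe, OASIS minus Venus (horizontal axis), for the tested genes of the 4 lists, with filled points for called genes, a black bar for each list's median and a dashed line for the median of all genes. The 7 called genes lie above 1 and belong to the neprilysin substrates and receptors and to the renin-cell genes.

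Genes known from renin-producing cells were the last list, and 4 of its 22 tested genes were called, all higher while Ren1 was lower, where 6.21% of all genes were called higher. The list has 25 genes on the array and a median of 0.18. Nr2f1, an orphan nuclear receptor that acts at the renin gene, was at -5.37 and -5.32 with Venus and -3.08 and -3.23 with OASIS, a rise of 2.19 (standard error 0.11, limma adjusted p = 0.00274). Adrb1, the β1-adrenergic receptor through which sympathetic nerves stimulate renin release, failed the background criterion on both Venus arrays and read -4.72 and -5.02 with OASIS. By the same approximate bound as for Mmel1, Adrb1 was at least 2.39-fold higher. The limma adjusted p of 0.00190 belongs to a fitted difference of 3.49 that rests on Venus values below the criterion. Ptger4, a prostaglandin E2 receptor coupled to cyclic AMP, rose by 1.17 (limma adjusted p = 0.00721), though its 2 other probes had 0.23 and 0.48. Pde3b, which breaks down cyclic AMP, rose by 1.14 (limma adjusted p = 0.0130). Akr1b7, an enzyme found together with renin in juxtaglomerular cells, had -0.50 (limma adjusted p = 0.0636), below the fold limit. After normexp, Ptger4 alone of the 4 still passed, and Nr2f1 had 0.90, Adrb1 0.68 and Pde3b 0.49.

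**Figure D5:**
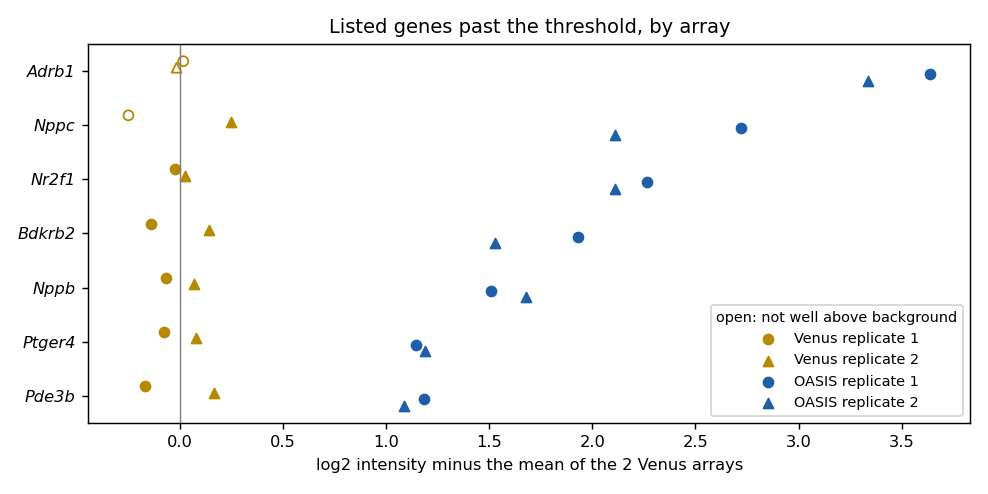
Log2 intensity minus the mean of the 2 Venus arrays (horizontal axis) for the 7 called genes of the lists, with 1 point per array and open points where the probe was not well above background. Both OASIS points lie above 1 for each gene, and the Venus points of Adrb1 and 1 of those of Nppc are open.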

How the data were processed

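Total RNA was labelled with Cy3 and hybridised to 1-colour Agilent SurePrint G3 mouse arrays, and the authors read them with Agilent Feature Extraction 12.1.0.3. The deposited intensity values are corrected spot signals. The authors' table multiplies them by 1 factor per array and adds a detection score. Here the deposited intensities were taken as log2 and centred on each array's 75th percentile; the authors deposited no log2 values. Control and outlier spots were left out and spots of a probe averaged. Probes well above background on both arrays of a group were fitted in limma 3.58.1 (R 4.3.3) with Benjamini-Hochberg adjustment. The limits on fold (over 2 or below 0.5) and adjusted p (below 0.1) are those of the study's methods, which name no test for the arrays; the methods' t-test, which they use elsewhere, was run as an alternative, beside other scalings, background corrections, filters, a replicate block and leaving out each array. With 2 arrays in each group, exact permutation gives no two-sided p below 0.333, and the number of arrays limits the precision. A gene is represented by its brightest probe over the 4 arrays.

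Members and lists were chosen with earlier results of these data known. Text names all member probes, list genes called by their brightest probe, Ece1, Ece2, Ren2, Agtrap, Lnpep and Anpep, and the 5 genes nearest Ren1. Other list genes, marker genes and dimmer probes were named after their values were seen. Some genes of the lists are not reported here. The fitting step was tested on simulated data. No sequences or coordinates are given, since the sources used here hold none for these probes.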

Additional observations from a re-analysis of the deposited data

How the results depend on the processing

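Of 148 recomputed differences of member probes, none changed direction when called, and the 5 that moved by more than the replicate spread did so with normexp. Many of the 148 could not have moved that far. Settings that change only the filter, the test or its limit leave the difference as it is. Leaving out 1 array of a pair cannot shift it by more than that spread. Only other scalings and background corrections, or keeping outlier spots, could have done so. The 2641 called probes were 1222 with normexp and 726 with the methods' t-test, and 2527 to 3287 without 1 array. The 4 called member probes were 2 with normexp (Ren1 and Enpep) and 2 with the filter on all 4 arrays (the same genes). With the methods' t-test they were 2, Ren1 and the dimmer Mmel1 probe, whose Venus values were not well above background. The other renin-angiotensin genes stayed at 0 called, without 1 array too (0 to 0). Among the other M13 peptidases, 1 gene, Ecel1, was called with normexp (2.0), with the mean of probes (2.15), without Venus replicate 1 (4.58) and without Venus replicate 2 (4.04), since another of its probes then stood for it or entered the mean, so that leaving out 1 array gave 0 to 1 (Ecel1 at -0.028 to 4.58). Neprilysin substrates and receptors fell to 1 with the methods' t-test (Nppb), were 2 with normexp and with the filter on all 4 arrays (without Nppc), and were 3 to 4 without 1 array. Renin-cell genes fell to 1 (Ptger4) with normexp and were 3 to 4 without 1 array, Pde3b having 0.97 without Venus replicate 1. Ptger4 had 0.63 by the mean of its probes. Uncalled genes near 0 changed sign: Ece2 (-0.047 with normexp, -0.0089 by the mean of probes), Ece1 (-0.39 by the mean of probes, -0.070 to 0.13 without 1 array), Lnpep (-0.34 by the mean of probes, -0.052 to 0.13 without 1 array) and Ecel1 (0.01 without OASIS replicate 2). What caused these changes was not tested.

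Samples carry the numbers 1 and 2 in either group, without a statement that equal numbers belong together. Differences of replicate 2 minus replicate 1 correlated at 0.26 over probes between the groups. With the replicate number as a block, 2702 probes and 4 member probes were called, and the 4 lists had 0, 0, 3 and 4 genes, so it moved none of these counts by over 1.5 times. A block for the slide was not run, since there was 1 slide. Signal over background limits the Mmel1 probes, Ace, the dimmest Mme probe and the angiotensin II receptors. It also limits the brighter Enpep probe, whose Venus spot medians were 92 and 89 over local backgrounds of 40.5 and 40.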

Other observations

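The annotation deposited with the signals has a renin secretion pathway, consulted after the values had been seen. Of its 72 other genes on the array, 50 were tested, with 9 called higher and a median difference of 0.02. Besides Adrb1, Ptger4 and Pde3b, the higher genes were Clca3b, Adrb3 at 4.14 (limma adjusted p = 0.00207), Cacna1c, a subunit of a voltage-gated calcium channel, at 1.97 (limma adjusted p = 0.00727), Calml4, Gnai1 at 1.22 and Gnaq at 1.09. The same annotation's renin-angiotensin pathway has 28 genes besides the members, of which 9 were tested and 0 called.

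For 5 of the 10 tested member probes, replicate 2 was above replicate 1 in both groups, as were 24.2% of all probes tested.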
